A study of Saccharomyces cerevisiae with 4 samples.

Results

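The genes described here mostly encode the coats, tethers and fusion factors that carry cargo along the secretory pathway of the budding yeast Saccharomyces cerevisiae. They were taken by symbol from the platform annotation: every gene named SEC, BET, BOS, TRS, COG or EXO with a number, apart from SEC2, SEC4, SEC53, SEC61, SEC62, SEC63, SEC66 and SEC72, together with SAR1, COP1, RET2, RET3, SFB2 and SFB3. This gave 61 of 6226 probes, which stand for 60 genes, since SEC31 had 2 probes. Not every symbol belongs to the pathway: EXO1 and EXO5 encode DNA exonucleases, the first of the nucleus and the second of mitochondria.

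Each of the 4 arrays held total RNA of the temperature-sensitive abf1-1 mutant in channel 1 and of wild type cells in channel 2, so a value is a ratio of the strains within 1 array. Both strains were grown in YPAD, a rich medium, at 30 °C to an OD600 between 1.0 and 1.2, diluted with as much medium preheated to 42 °C and harvested 45 min later at 36 °C. The mutant and the wild type thus shared the heat shift, and the labels name no unshifted sample, no strain background and no separate cultures. If the arrays came from the same cultures, p-values measure only technical spread. Abf1, the factor altered in the mutant, binds many promoters as well as replication origins and silencers.

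Proteins leave the endoplasmic reticulum in vesicles coated by COPII, and COPI vesicles return escaped proteins and carry material back through the Golgi. Large tethering complexes, among them TRAPP and COG at the Golgi and the exocyst at the plasma membrane, hold an arriving vesicle near its target. Paired SNARE proteins then fuse the membranes, and the ATPase Sec18 with its partner Sec17 takes the spent SNARE complexes apart. Most of these proteins are essential for growth in yeast, and many were found through temperature-sensitive secretion mutants.

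Values are log ratios as deposited, read here as log2, after each array was centred on its median. Neither the labels nor the table say which strain stands in the numerator or which log base was used, so a positive or negative ratio is not called higher or lower in the mutant. A common change of base would rescale all values alike, and fold differences given here hold only if the base is 2. The arrays stood apart in pairs. Over all 6189 features (genes, or probes without a gene name), which are not independent replicates, Pearson's r was 0.74 between arrays 1 and 3 and 0.86 between arrays 2 and 4, but between -0.22 and 0.05 for the other pairs of arrays. No batch or swap of dyes is given by the labels. ABF1 itself had 0.99, 1.69, 1.96 and 1.82 on arrays 1 to 4, a mean of 1.62 ± 0.43 (SD, n = 4; limma adjusted p 0.0254, and 0.0607 to 0.188 with any 1 array left out, where the mean stayed positive).

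None of the secretory genes passed the test over the 4 arrays. The limma test of each mean ratio against 0, with Benjamini-Hochberg adjustment over all 6189 features, called 0 of 60 genes at an adjusted p below 0.05, where 3.23% of all features were called. At an unadjusted p below 0.05 there were 5 of 60 genes, or 8.33%, against a background of 20.8%. These were SEC14, SEC27, SEC20, SEC6 and TRS31, all with negative ratios, a class that held 11.1% of all features. Mean ratios of the 60 genes ran between -0.80 and 0.66 with a median of 0.03, and those of all features between -2.51 and 2.40 with a median of 0.02. Means were negative for 27 genes and positive for 33. The median size of the mean, whatever its sign, was 0.13 for the secretory genes and 0.19 for all features. A mean of at least 1.5-fold either way was seen for 2 genes, SEC14 and EXO70, or 3.33%, where 7% of all features reached it. Without EXO70, whose values are not its own, it was 1 of 59 genes, or 1.69%.

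The 95% interval of the mean lay within 2-fold either way for 55 of the 60 genes, or 91.7%, where 87% of all features had such an interval. The exceptions were SEC14, SEC5, SEC7, EXO84 and EXO70. These intervals treat the arrays as independent. Since the arrays stood apart in pairs, the intervals may be too narrow and the p-values too small. Where the pairs differ by a fixed amount, that difference enters the SD. The intervals may then instead be too wide and the p-values too large. Which of these holds was not tested.

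EXO70, a membrane-binding subunit of the exocyst, has no ratio of its own here. Its values of 1.80, 0.37, -0.20 and 0.65 were, on every array, the 1 exact value that 41, 46, 41 and 35 probes shared on arrays 1 to 4. In all, 27 probes carried that value on all 4 arrays. Its meaning is not stated by the labels or the table. EXO70 is therefore counted but not described further, and without it 0 of 59 genes were called and the median was 0.03.

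**Figure D1:**
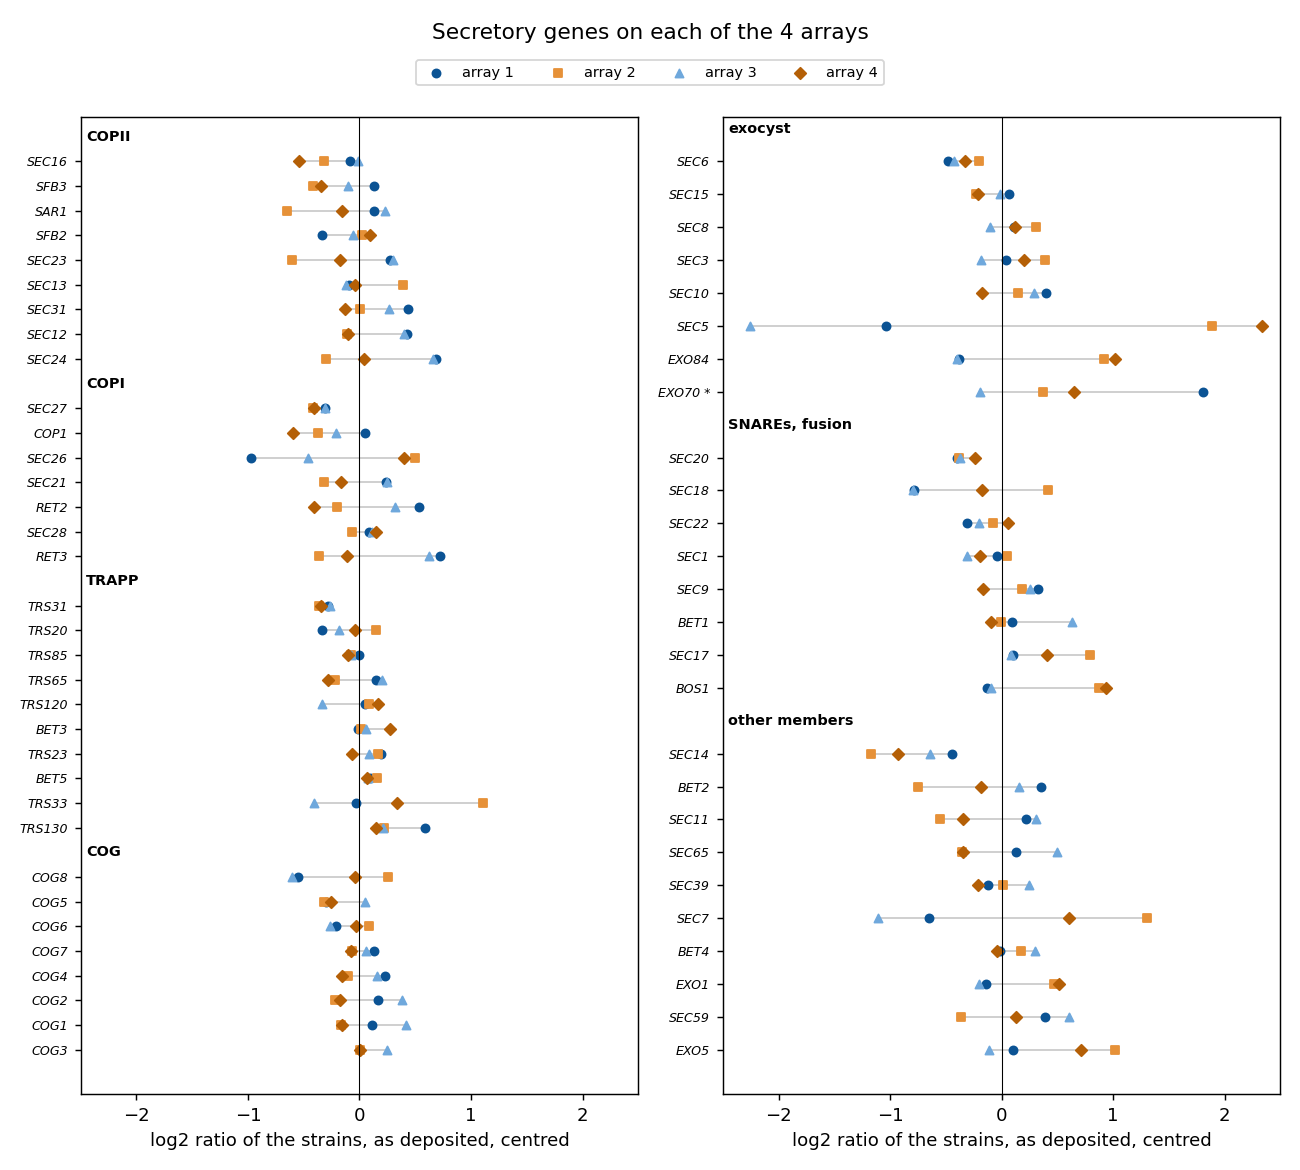
Log2 ratio of the strains (horizontal axis, as deposited, centred on each array's median) of the 60 secretory genes on arrays 1 to 4, with genes sorted by mean within each role. Each point is 1 array and each grey line spans the 4 values; the asterisk marks EXO70, whose values were shared with other probes, and SEC5 shows the widest span, from -2.26 to 2.33.

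Among the 9 COPII genes, means ran between -0.24 and 0.27, with 5 negative and 4 positive and 0 called. SEC24, which encodes the inner coat protein that selects cargo, had the highest mean at 0.27 ± 0.48 (SD, n = 4; adjusted p 0.499), with 0.69, -0.30, 0.66 and 0.04 on arrays 1 to 4. Arrays 1 and 3 were high and close to each other, and arrays 2 and 4 lay near or below 0. SEC23, whose product pairs with Sec24 and activates the GTPase of Sar1, was likewise highest on arrays 1 and 3, with 0.28, -0.61, 0.30 and -0.17. SEC12, which encodes the exchange factor that loads Sar1 with GTP, had 0.43, -0.11, 0.40 and -0.10. SAR1, the gene for the GTPase that starts coat assembly, had 0.13, -0.65, 0.23 and -0.16. In these 4 genes arrays 1 and 3 were thus above arrays 2 and 4, and their means of -0.11 to 0.27 average over the 2 levels. SEC16, SFB3 and SEC31 were also higher on arrays 1 and 3. Not all COPII genes were: SFB2, with -0.33, 0.02, -0.05 and 0.10, and SEC13, with -0.10, 0.39, -0.12 and -0.04, were lower there.

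The scaffold gene SEC16, which marks the exit sites of the endoplasmic reticulum, was the COPII gene with the lowest mean and the single one with 1 sign on all 4 arrays. It had -0.08, -0.32, -0.01 and -0.54, a mean of -0.24 ± 0.24 (SD, n = 4; limma adjusted p 0.353). The paralogs of SEC24 did not share its values: SFB3 had a mean of -0.18 ± 0.25 and SFB2 of -0.07 ± 0.19, neither of them called. For the outer coat, SEC13 had a mean of 0.03 ± 0.24 and SEC31 of 0.14 ± 0.26. The probes of SEC31 disagreed on array 2, at 0.32 and -0.31, and had means of 0.32 and -0.03.

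The COPI coat is a heptamer, and all 7 of its genes were measured, with means between -0.36 and 0.22, 3 of them negative and 4 positive, and 0 called. SEC27, for the beta prime subunit, had -0.31, -0.42, -0.31 and -0.41, a mean of -0.36 ± 0.06 (SD, n = 4; 95% interval -0.60 to -0.12; limma adjusted p 0.117). Its SD was smaller than that of most features, ranking 6100 of 6189 from the largest. COP1, for the alpha subunit that forms the outer layer together with Sec27, had 0.05, -0.38, -0.21 and -0.60. Its negative mean of -0.28 ± 0.27 (adjusted p 0.31) rested more on arrays 2 and 4, while SEC27 was nearly level across arrays.

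SEC26, the gene for the beta subunit, swung the other way from RET3, RET2 and SEC21, with -0.97, 0.50, -0.46 and 0.40. Arrays 1 and 3 were negative and arrays 2 and 4 positive, and the mean was -0.13 ± 0.70. RET3, for the zeta subunit, had 0.72, -0.36, 0.62 and -0.11, the highest COPI mean at 0.22 ± 0.53 (adjusted p 0.617). RET2, for the delta subunit, had 0.54, -0.20, 0.32 and -0.41, and SEC21, for gamma, had 0.24, -0.32, 0.25 and -0.17. In RET3, RET2 and SEC21 the positive arrays were 1 and 3. SEC28, for the nonessential epsilon subunit, varied least after SEC27, with a mean of 0.07 ± 0.10. The subunits are made for 1 complex, yet on array 1 their ratios spanned -0.97 for SEC26 to 0.72 for RET3.

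The 10 TRAPP genes had the smallest median SD over arrays of the roles, 0.17, against 0.28 for all features. Their means ran between -0.31 and 0.29, with 5 negative and 5 positive and 0 called, and 4 of them had 1 sign on all 4 arrays. TRS31, a core subunit, had -0.29, -0.36, -0.26 and -0.34, a mean of -0.31 ± 0.05 (SD, n = 4; 95% interval -0.55 to -0.08; limma adjusted p 0.149). BET5, another core subunit, was as level at 0.10, 0.16, 0.08 and 0.07, with a mean of 0.10 ± 0.04 (adjusted p 0.599). The core subunits thus did not share a sign: of 6, TRS31 and TRS20 had negative means and BET3, TRS23, BET5 and TRS33 positive ones. TRS33 was the least steady of the core with -0.03, 1.11, -0.41 and 0.33.

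TRS130, TRS120 and TRS65 encode subunits of the TRAPPII form, which acts late in the Golgi. TRS130 had the highest TRAPP mean at 0.29 ± 0.20 (SD, n = 4; adjusted p 0.245), with 0.59, 0.22, 0.21 and 0.15, all positive and array 1 the highest. TRS120 had a mean of -0.01 ± 0.22 and TRS65 of -0.04 ± 0.25. TRS85, for the subunit of the TRAPPIII form that acts in autophagy, had -0.06 ± 0.04.

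**Figure D2:**
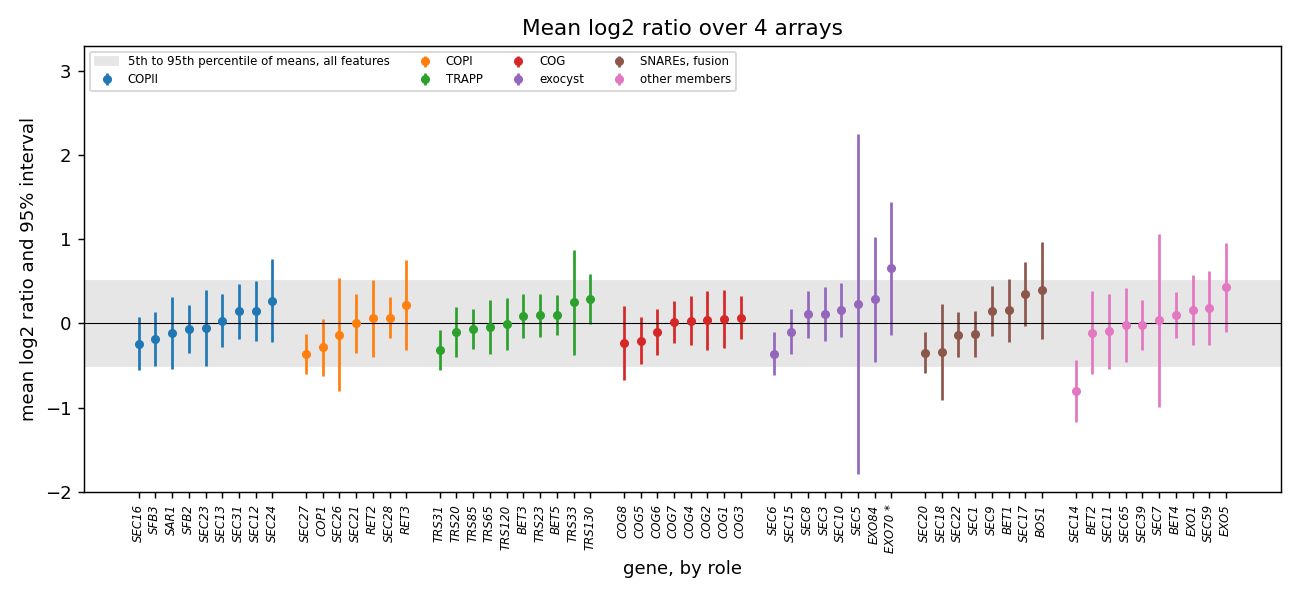
Mean log2 ratio over 4 arrays (points) with limma's 95% interval (bars) of each secretory gene (horizontal axis, coloured by role). The grey band holds the 5th to 95th percentile of the means of all 6189 features, -0.50 to 0.51, and SEC14 at -0.80 and the shared value of EXO70 at 0.66 (asterisk) are the 2 means outside it.

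The COG complex is a hetero-octamer with 2 lobes that tethers vesicles within the Golgi, and its 8 genes had the narrowest range of means of the roles, -0.23 to 0.07. The 4 genes of lobe A, COG1 to COG4, had positive means of 0.03 to 0.07. Of lobe B, COG8, COG5 and COG6 had negative means of -0.23 ± 0.42, -0.20 ± 0.17 and -0.10 ± 0.16, and COG7 had 0.01 ± 0.10 (SD, n = 4). None was called. COG1, COG2, COG4 and COG7 each had positive ratios on arrays 1 and 3 and negative ones on arrays 2 and 4, for example COG2 with 0.17, -0.22, 0.39 and -0.17. COG8 had -0.55, 0.26, -0.61 and -0.04, with arrays 1 and 3 the low ones. On array 4, 7 of the 8 genes were negative, all but COG3 at 0.01.

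The widest span of the secretory genes was that of SEC5, a gene of the exocyst. Without EXO70, the median SD of the exocyst genes was 0.24, against 0.28 for all features. SEC5, for an essential subunit of this octameric tether, had -1.04, 1.88, -2.26 and 2.33 on arrays 1 to 4. Arrays 1 and 3 were far below 0 and arrays 2 and 4 far above, and the mean of 0.23 ± 2.23 (SD, n = 4; 95% interval -1.79 to 2.25; adjusted p 0.905) describes neither level. By SD over arrays SEC5 ranked 7 of 6189 features. EXO84 followed the same order with -0.39, 0.91, -0.40 and 1.02, and had a mean of 0.29 ± 0.79 (adjusted p 0.642).

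Other exocyst genes were steadier. SEC6 was negative on all 4 arrays with -0.48, -0.20, -0.43 and -0.33, a mean of -0.36 ± 0.12 (SD, n = 4; 95% interval -0.62 to -0.10; limma adjusted p 0.134). SEC3, which helps to mark the site of exocytosis, and SEC8 had means of 0.11 ± 0.24 and 0.11 ± 0.17, each negative on array 3 alone. SEC10 had a mean of 0.16 ± 0.25. SEC15, whose product binds the Rab GTPase Sec4 on the vesicle, had -0.10 ± 0.14. Without EXO70, 2 of 7 exocyst genes had negative means and 5 positive ones, and 0 were called.

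In the gene order of the RefSeq table SEC5 (YDR166C) lies between TRM82 and TAF10, with SEC1 (YDR164C) on the far side of TRM82. These neighbours, named after their values were seen, did not show the swing of SEC5. TRM82, a tRNA methylation gene, had 0.44, -0.17, 0.43 and -0.02, and TAF10, for a subunit of TFIID, whose promoter region adjoins that of SEC5, had 0.22, 0.57, 0.23 and 0.34. SEC1, for the protein that binds SNARE complexes at the plasma membrane, had -0.04, 0.05, -0.31 and -0.19. SEC7 (YDR170C) lies near them, and its gene encodes the Golgi exchange factor that activates Arf GTPases. It was the secretory gene with the widest spread after SEC5, at -0.65, 1.31, -1.11 and 0.60, with a mean of 0.04 ± 1.11 (SD, n = 4; adjusted p 0.969), and like SEC5 it was negative on arrays 1 and 3 and positive on arrays 2 and 4.

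Of the 8 genes of SNAREs and fusion factors, 4 had negative and 4 positive means and 0 were called. SEC20, for a SNARE at the endoplasmic reticulum that receives COPI vesicles, had -0.40, -0.38, -0.37 and -0.24, a mean of -0.35 ± 0.07 (SD, n = 4; 95% interval -0.59 to -0.10; limma adjusted p 0.129). The genes for SNAREs of traffic between the endoplasmic reticulum and the Golgi differed among themselves. BOS1 had -0.13, 0.87, -0.09 and 0.94, the highest fusion mean at 0.40 ± 0.59 (adjusted p 0.398), which came from arrays 2 and 4. BET1 had 0.16 ± 0.33 and was highest on array 3 at 0.63, and SEC22 had -0.13 ± 0.16. SEC9, for the plasma membrane SNARE, had 0.15 ± 0.22.

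SEC17 and SEC18 encode partners that disassemble SNARE complexes, and their means had opposite signs. SEC17 was positive on all 4 arrays with 0.10, 0.79, 0.09 and 0.41, a mean of 0.35 ± 0.33 (SD, n = 4; adjusted p 0.272). SEC18 had -0.79, 0.42, -0.79 and -0.18, a mean of -0.33 ± 0.58 (adjusted p 0.471). On each array SEC18 lay below SEC17, and both were highest on array 2.

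SEC14 came nearest to the threshold of the secretory genes. It encodes the lipid transfer protein for phosphatidylinositol and phosphatidylcholine that Golgi secretion depends on. Its ratios were -0.45, -1.17, -0.64 and -0.93, negative on all 4 arrays and lowest on arrays 2 and 4, with a mean of -0.80 ± 0.32 (SD, n = 4; 95% interval -1.17 to -0.43), a 1.74-fold difference. The limma adjusted p was 0.0556, and the gene ranked 162 of 6189 features by the size of its mean. It passed narrowly with ratios not centred (adjusted p 0.0496), with arrays scaled to equal spread (0.0467) and with array weights (0.0478). In these settings 3.44%, 3.33% and 3.78% of all features were called. With quantile normalization SEC14 did not pass (limma adjusted p 0.076), in a fit that called 98 of 6189 features. With any 1 array left out its mean stayed between -0.91 and -0.67 while the adjusted p was 0.144 to 0.291, in fits that called 0, 22, 0 and 0 of 6189 features without arrays 1 to 4. The RefSeq neighbours of SEC14, also named after their values were seen, differed. NAM7, a nonsense-mediated decay gene that ends next to SEC14, had -0.36, -0.87, -0.50 and -0.91 with a mean of -0.66 ± 0.27 (adjusted p 0.0698). CTF18, whose start faces away from that of SEC14 across the shared upstream region, had 0.32, -0.18, 0.13 and -0.30.

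The remaining genes act in other steps, and 0 of them were called. BET2 and BET4 encode the subunits of the enzyme that adds geranylgeranyl lipids to Rab GTPases, and had means of -0.11 ± 0.48 and 0.10 ± 0.16 (SD, n = 4). SEC11, of the signal peptidase, had -0.09 ± 0.42, SEC65, of the signal recognition particle, -0.02 ± 0.41, SEC59, for dolichol kinase, 0.19 ± 0.41, and SEC39, of the Dsl1 tether, -0.02 ± 0.20. Of the exonuclease genes outside the pathway, EXO5 had the highest mean of the genes with ratios of their own at 0.43 ± 0.53 (0.10, 1.02, -0.12 and 0.71; adjusted p 0.32), and EXO1 had 0.16 ± 0.38.

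**Figure D3:**
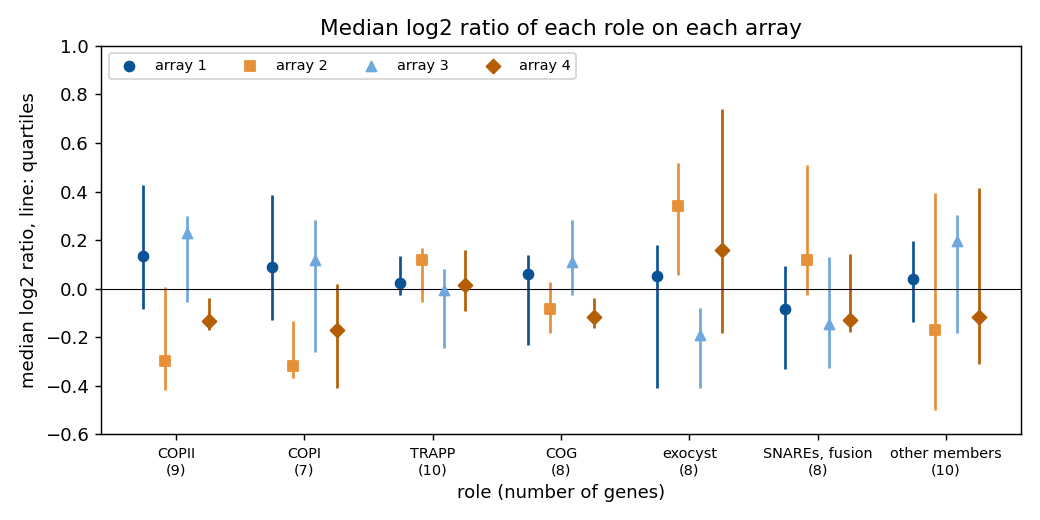
Median log2 ratio (markers) with quartiles (lines) of the genes of each role on arrays 1 to 4 (number of genes in brackets). The COPII and COPI medians are positive on arrays 1 and 3 and negative on arrays 2 and 4. The exocyst medians, drawn with EXO70 included, are highest on array 2 at 0.34 and lowest on array 3 at -0.19. Without EXO70 they are 0.30 and -0.19.

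The roles were ordered differently on the arrays. The COPII median was 0.13, -0.30, 0.23 and -0.13 on arrays 1 to 4. The COPI median was 0.09, -0.32, 0.12 and -0.17, and the COG median 0.06, -0.08, 0.11 and -0.12. The exocyst without EXO70 had 0.04, 0.30, -0.19 and 0.12. TRAPP medians stayed between -0.01 and 0.12 on every array. The coats and the exocyst thus lay on opposite sides of 0 on arrays 2, 3 and 4. No difference between roles was tested.

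Signs rarely held across arrays. The same sign on all 4 arrays was seen for 11 of 60 genes, or 18.3%, 7 negative and 4 positive, where 31.1% of all features had it. The negative ones were SEC14, SEC27, SEC6, SEC20, TRS31, SEC16 and TRS85, and the positive ones SEC17, TRS130, BET5 and COG3. One sign on arrays 1 and 3 and the opposite on arrays 2 and 4 was seen for 23 of 60 genes, or 38.3%, where 34.9% of all features had it. In 15 of these 23 arrays 1 and 3 were positive, and in 8 they were negative. Over the 59 genes without EXO70, which are not independent replicates, r was 0.82 between arrays 1 and 3, 0.85 between arrays 2 and 4, and between -0.56 and -0.34 for the other pairs of arrays. Those negative values rested in part on SEC5: without it too they lay between -0.39 and -0.14, where all features gave -0.22 to 0.05.

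**Figure D4:**
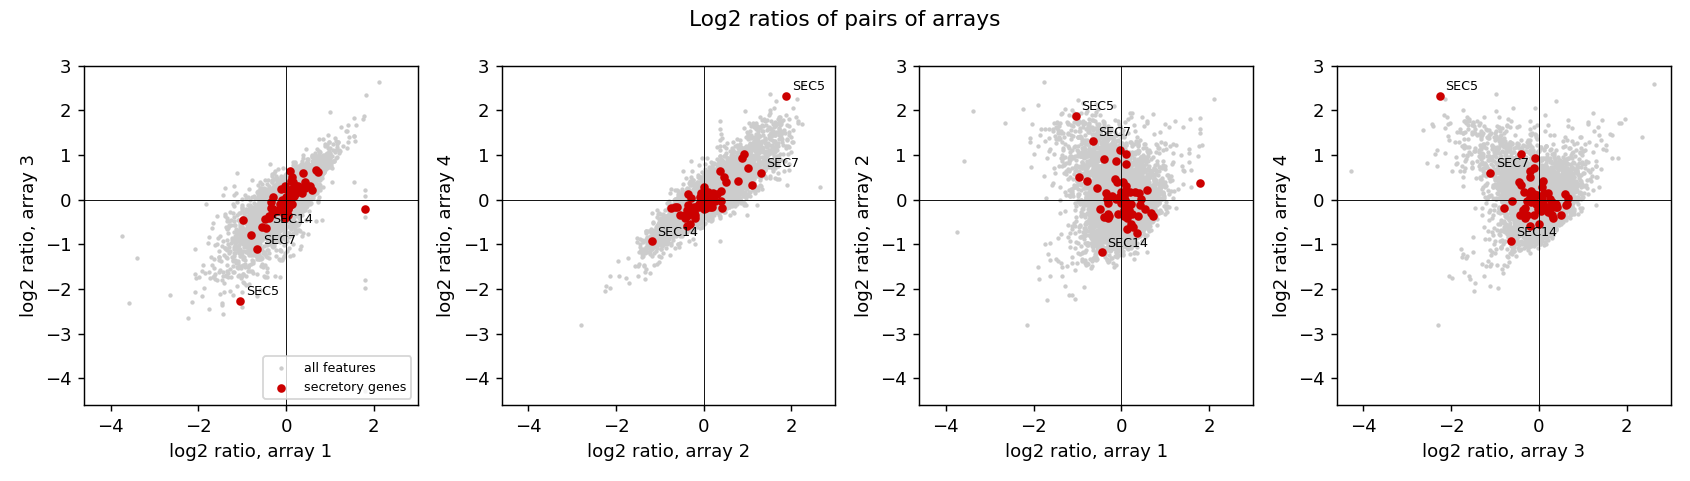
Log2 ratios of 1 array against another for all 6189 features (grey) and the 60 secretory genes (red), with SEC5, SEC7 and SEC14 named. Arrays 1 and 3 and arrays 2 and 4 line up, with r of 0.74 and 0.86 over all features, and SEC5 changes sign between the arrays of the panels at right.

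Since the arrays stood apart, the test was also run with a term that takes out the difference between the pairs of arrays, so that only arrays of 1 pair are set against each other for the error. It called 13 of 60 genes, 7 negative and 6 positive, where 32.7% of all features were called. These included the level negative genes SEC27, SEC6, SEC20 and TRS31, at limma adjusted p-values of 0.0108, 0.0121, 0.0142 and 0.0179, and SEC14 at 0.000904. The other negative calls were COP1 and SEC18, at 0.0421 and 0.0479. The positive calls were BOS1, EXO5, SEC17, EXO84, TRS130 and SEC24, at 0.00787, 0.0113, 0.0239, 0.0257, 0.0421 and 0.0466. The pairs were read from these same ratios and are given by no label, so the p-values of this fit may be too small. This fit also takes no account of how far the pairs differ, and EXO84, called positive by it, had negative ratios on arrays 1 and 3. On arrays 1 and 3 alone 14 genes were called (33.3% of all features), and on arrays 2 and 4 alone 21 genes (42%). SEC14 was called negative on both, and SEC26, SEC5, SEC7 and EXO84 were called on both with opposite signs. With the signs of arrays 2 and 4 turned, 2 of 60 genes were called, SEC5 and SEC7, where 4.88% of all features were. In each of these fits the share of secretory genes called was below that of all features, at 21.7%, 23.3%, 35% and 3.33%.

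Gene length was a property that the choice by symbol did not use. The secretory genes were longer than most, with a median length of 1848 bases against 1269 for all features with a length in the RefSeq table, and a range of 480 for BET5 to 6588 for SEC16. Across the 60 genes, Pearson's r of the ratio with the logarithm of length was -0.10, 0.18, -0.30 and 0.09 on arrays 1 to 4, and across 5535 features it was -0.17, 0.21, -0.30 and 0.16. The sign of r with length thus also differed between arrays 1 and 3 and arrays 2 and 4, and its part in the ratios was not tested. For the mean ratio r was -0.05 in the secretory genes and -0.02 in all features.

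Of 110 genes that lie next to a secretory gene in RefSeq order and have ratios of their own, 2 were called, or 1.82%, where 3.23% of all features were. These were ADE8 beside TRS120 and DAL81 beside SEC11, both negative and both chosen after their values were seen. ADE8, for an enzyme of purine synthesis, had a mean of -0.91 ± 0.16, and DAL81, for a regulator of nitrogen catabolism, had -0.64 ± 0.09 (SD, n = 4; limma adjusted p 0.0274 and 0.0374).

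A list of other genes of the same traffic steps, with SNAREs, cargo receptors, Arf GTPases and their regulators, clathrin and its adaptors, was given the same test. Of 62 genes measured, 2 were called, 1 negative and 1 positive, where 1.86% of all features were called negative and 1.37% positive, with 33 negative and 29 positive means and a median of -0.03. MSO1, whose product binds Sec1 in vesicle fusion at the plasma membrane, had -0.70, -0.67, -0.68 and -0.77, a mean of -0.71 ± 0.04 (SD, n = 4; limma adjusted p 0.0289). EMP46, for a lectin-like cargo receptor of COPII vesicles, had 0.56, 0.90, 0.50 and 0.81, a mean of 0.70 ± 0.19 (adjusted p 0.0456). With any 1 array left out, in fits that called at most 22 of 6189 features, neither passed (adjusted p 0.0957 to 0.23 for MSO1 and 0.128 to 0.275 for EMP46), and their means stayed between -0.72 and -0.68 and between 0.63 and 0.76. EMP47, the paralog of EMP46, had -0.19 ± 0.15, and SEC1, the partner of MSO1, had -0.12 ± 0.16, neither of them called.

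Some genes of that list also differed between the pairs of arrays. CHC1, the clathrin heavy chain gene, had -0.40, 1.62, -0.96 and 1.66, and USO1, for a long coiled-coil tether of COPII vesicles, had -0.58, 0.97, -0.42 and 1.13. The light chain gene CLC1 had 0.13, -0.57, 0.01 and -0.69, low on the arrays where CHC1 was high. ERV14 and ERV25, for cargo receptors, had 0.77, -0.18, 0.95 and 0.01, and 0.22, -0.99, 0.21 and -0.67, highest on arrays 1 and 3. EMP24 and ERV29 were also highest there. ERV46 and ERP2 were lowest there, with -0.91, 1.32, -0.22 and 1.28, and -0.33, 1.10, -0.85 and 0.55. These genes were chosen after their values were seen. CHC1, USO1, CLC1, ERV14 and ERV25 were not called over the 4 arrays. These 5 were among the 21 of 62 related genes called with the term for the pairs, where 32.7% of all features were. That fit tests the mean ratio and not the difference between the pairs. CHC1, with a positive mean of 0.48, was called by it although its ratios on arrays 1 and 3 were negative.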

How the data were processed

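Log2 ratios of 4 arrays with 2 channels each were analysed. The table deposited by the authors holds 1 log ratio per probe and array, taken as log2 from its range and sign, with 0 missing values; for dyes, scanner, background correction and normalization, the sources used here give nothing. The platform annotation named 5576 probes with 1 gene, 0 with several and 650 with none, and all 60 secretory genes matched the RefSeq table of assembly R64, used for names, length and gene order only. Arrays were median-centred and probes of 1 gene averaged, leaving 6189 features. Means were tested against 0 with lmFit and eBayes of limma 3.58.1 (R 4.3.3), intercept only and two-sided. Benjamini-Hochberg adjustment ran over all features, with a threshold of 0.05. The test was checked on simulated data with independent arrays, which does not cover the pairs of arrays seen here. Tables used Python 3.11.15 and pandas 2.3.3, plots matplotlib 3.10.9. The number of arrays limits the precision, since no counts or brightness came with the ratios. The members, the list of related genes (63, of which ERP1 was not analysed here) and the other settings were chosen with earlier results of these data known. The rule for genes named took ABF1, called genes of the lists and, in each role and in the related list, the lowest and highest mean. Genes named beyond it are members of the lists or are said to be chosen or named after their values were seen. Of the related list the lowest mean was that of MSO1 and the highest that of EMP46. Promoter sequences were not used here.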

Additional observations from a re-analysis of the deposited data

Results flagged for a closer look

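In 4 of 63 genes looked at, 1 array lay apart from the other 3 by Dixon's test, and chance flags about 1 in 20. COG3 had 0.25 on array 3, where the other arrays lay between 0.00 and 0.01. SEC13 had 0.39 on array 2 and values of -0.12 to -0.04 elsewhere. SEC20 had -0.24 on array 4 and -0.40 to -0.37 elsewhere, so its sign did not depend on that array. TRS130 had 0.59 on array 1 and 0.15 to 0.22 elsewhere.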

How the results depend on the processing

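Each ratio sets the strains against each other within 1 array, so the test of ratios against 0 is already paired by array. The samples form 1 group, and the labels give no further pairing. Of the secretory genes, 1 (SEC14) was called with ratios not centred, with equal spread and with array weights. In these settings 3.44%, 3.33% and 3.78% of all features were called. With the term for the pairs of arrays 13 were called (32.7% of all features), on arrays 1 and 3 alone 14 (33.3%) and on arrays 2 and 4 alone 21 (42%). With the signs of arrays 2 and 4 turned 2 were called (4.88% of all features), SEC5 at -1.88 and SEC7 at -0.92, both reversed. On arrays 1 and 3 alone SEC5 (-1.65), SEC7 (-0.88) and EXO84 (-0.39) were called with a sign opposite to their mean, as was SEC26 (0.45) on arrays 2 and 4 alone. The cause was not tested; these fits measure the spread within pairs of arrays or use 2 arrays only. With each array left out 0 secretory genes were called, with 2 to 6 at an unadjusted p below 0.05, but so were only 0, 22, 0 and 0 of all features without arrays 1 to 4. The median of the secretory genes was -0.057 on arrays 2 and 4 alone, against 0.03 on all 4, and ran from -0.02 to 0.06 with each array left out. Of the related genes, 2 were called, where 200 of 6189 features were. There were 3 (with ERV15) when not centred (213 of 6189 features), with array weights (234 of 6189) or without probes of a shared value (206 of 6137). At an adjusted p below 0.01 there were 0 (2 of all features), and with quantile normalization 1 (98 of all features). With the pair term 21 were called (32.7% of all features), on arrays 1 and 3 alone 19 (33.3%) and on arrays 2 and 4 alone 25 (42%). With any array left out 0 were called, in fits that called at most 22 of 6189 features. With turned signs SEC14 had 0.25, MSO1 0.015, EMP46 -0.16 and ABF1 -0.14. The related genes called with turned signs were 3, CHC1, RUD3 and USO1, where 4.88% of all features were called. Robust eBayes called 0 secretory genes (199 of 6189 features), as did single probes (199 of 6226) and a minimum of 1.5-fold (196 of 6189). Removal of probes with a shared value (206 of 6137 features) and quantile normalization (98 of 6189) also called 0. So did an adjusted p below 0.01 (2 of 6189).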
